A study of Mus musculus with 34 samples.

Results

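Chemokines and inflammatory cytokines were followed in heart tissue of female C57BL/6 mice after a carbon black nanoparticle had been placed in the lung. The set held 10 genes: the CC chemokine ligands Ccl2, Ccl9 and Ccl11, the CXC chemokine ligands Cxcl1, Cxcl9, Cxcl12, Cxcl13 and Cxcl16, and the interleukins Il1b and Il6. Array probes were assigned to them by the RefSeq accession printed on the array design, which gave 12 probes of 41174, with 2 probes each for Cxcl12 and Cxcl16. All 10 genes passed the filter on dim probes and were thus among the 19798 genes tested. Il6 passed it only through the day 1 and day 3 carbon black groups.

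The mice were acquired at 5 to 6 weeks of age and received Printex 90 carbon black (162 µg) by intratracheal instillation, suspended in 0.9% NaCl water that held 10% cell-free lavage fluid from lungs of other C57BL/6 mice. Control mice received that fluid alone, so both arms underwent the instillation of 40 µl of liquid and 150 µl of air. Hearts were taken 1, 3 or 28 days later, from 6, 5 and 5 carbon black mice and from 6, 6 and 6 vehicle mice. The tissue was a section cut at random through both ventricles. Each of the 34 arrays held Cy5-labelled RNA of 1 mouse heart and a Cy3-labelled reference RNA pooled from many mouse sources, so a log2 ratio above 0 means more transcript in the heart than in the reference.

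Chemokines are small secreted proteins that guide leukocytes along a gradient through G protein-coupled receptors on the leukocyte surface. Inflammatory members such as Ccl2 and Cxcl1 are switched on by interleukin-1, tumour necrosis factor or bacterial products through the transcription factor NF-kappa-B, whereas homeostatic members such as Cxcl12 and Cxcl13 are made steadily by stromal cells. Interleukin-1 beta and interleukin-6 are early cytokines of the inflammatory response. In the heart, resident macrophages, endothelial cells and fibroblasts are all known sources of chemokines.

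RefSeq promoter sequences (GRCm38.p6) were at hand for 7 of the 10 genes, all except Ccl2, Ccl11 and Cxcl16. The 250 bases before the transcription start were searched on both strands for the kappa-B motif bound by NF-kappa-B (GGG, any 3 bases, then TTCC) and for the TATA motif TATAAA. The kappa-B letters were found in Cxcl1, Il6 and Ccl9, and in 4.65% of the 32851 mouse promoters of the same length. The TATA letters were found in Ccl9, Cxcl9, Cxcl13 and Il1b, and in 12.4% of the promoters. The promoters of the 3 genes with kappa-B letters are shown, with that of Cxcl13, the gene of widest spread among the hearts. They run from 5′ to 3′ on the strand of the gene, with the motif letters in capitals on whichever strand they matched.
Cxcl1, chr5:90890995-90891244, plus strand: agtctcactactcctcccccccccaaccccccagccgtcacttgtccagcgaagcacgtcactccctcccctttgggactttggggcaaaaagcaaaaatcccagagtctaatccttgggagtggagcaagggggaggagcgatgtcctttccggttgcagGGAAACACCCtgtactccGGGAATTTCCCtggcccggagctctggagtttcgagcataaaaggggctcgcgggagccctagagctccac
Il6, chr5:30012864-30013113, plus strand: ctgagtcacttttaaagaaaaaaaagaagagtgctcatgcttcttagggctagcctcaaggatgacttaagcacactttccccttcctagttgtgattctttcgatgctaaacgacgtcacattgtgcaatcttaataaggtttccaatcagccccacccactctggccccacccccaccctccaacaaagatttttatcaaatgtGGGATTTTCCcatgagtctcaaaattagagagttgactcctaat
Ccl9, chr11:83578637-83578886, minus strand: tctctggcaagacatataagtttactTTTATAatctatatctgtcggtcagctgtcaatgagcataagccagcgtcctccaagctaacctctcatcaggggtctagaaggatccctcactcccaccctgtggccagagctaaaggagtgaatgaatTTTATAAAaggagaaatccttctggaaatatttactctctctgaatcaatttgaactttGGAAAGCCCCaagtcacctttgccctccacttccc
Cxcl13, chr5:95956689-95956938, plus strand: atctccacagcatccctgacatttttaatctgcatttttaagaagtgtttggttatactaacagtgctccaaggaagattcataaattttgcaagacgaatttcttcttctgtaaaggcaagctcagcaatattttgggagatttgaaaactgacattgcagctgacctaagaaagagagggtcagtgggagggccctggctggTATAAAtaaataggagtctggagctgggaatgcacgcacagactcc
Cxcl1 held 3 kappa-B matches, of which the first lies at −89 to −80 relative to the start and the other two overlap each other between −71 and −61. Il6 held 1 at −44 to −35, and Ccl9 held 1 on the opposite strand at −35 to −26, beside TATA letters further upstream. The Cxcl13 TATA letters lie at −46 to −41.

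Ventricular markers were high on every array, with Tnni3, cardiac troponin I, at log2 ratios between 4.20 and 7.89. Between 42.2% and 66.1% of probes were well above background in the heart channel, and no such spot was saturated. One array stood apart before any comparison: on carbon black day 1 replicate 6 the log2 ratios had an SD over genes of 0.74, against 0.95 to 1.25 on the other 33 arrays, and its median correlation with its group was 0.768. That array was the lowest of all 34 for Ccl11, Cxcl9 and Cxcl16 and the highest for Cxcl1 and Il6, and differences without it are given beside the results it moved most. It is 1 of 5 arrays low in atrial transcripts. Liver transcripts, scored over 6 tested of 8 markers, reached 2.62, 4.34 and 3.37 on vehicle day 3 replicates 4, 5 and 6, against at most 2.80 on the other arrays, so that carbon black day 3 replicate 3 (2.80) and vehicle day 1 replicate 3 (2.65) lay above the lowest of them. Exposure also went with the place on the slide: all 10 arrays at position 4 were carbon black, and 12 of the 18 vehicle arrays were at position 1.

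Heart RNA gave a signal well above background on all 34 arrays for Ccl2, Ccl9, Cxcl9, Cxcl12 and Cxcl16. Ccl11 and Il1b were detected in this sense on 30 arrays each, Cxcl1 on 29 and Cxcl13 on 26. Il6 was well above background on 9 of 34 arrays: in carbon black hearts on 3 of 6 at day 1, 4 of 5 at day 3 and 0 of 5 at day 28, and in vehicle hearts on 1 of 6, 0 of 6 and 1 of 6. The heart-channel signal of Il6 was between 1.01 and 1.63 times its local background on all arrays. At day 3 its mean log2 heart signal, normalised between arrays, was 6.51 in carbon black and 6.49 in vehicle hearts. Of all probes, 52.5% to 64.6% were well above background on the day 3 carbon black arrays and 48.8% to 60.4% on the vehicle ones. The Cxcl12 signal was between 11.9 and 129 times its local background. In bulk tissue, fewer cells of a type and less RNA per cell cannot be told apart.

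**Figure D1:**
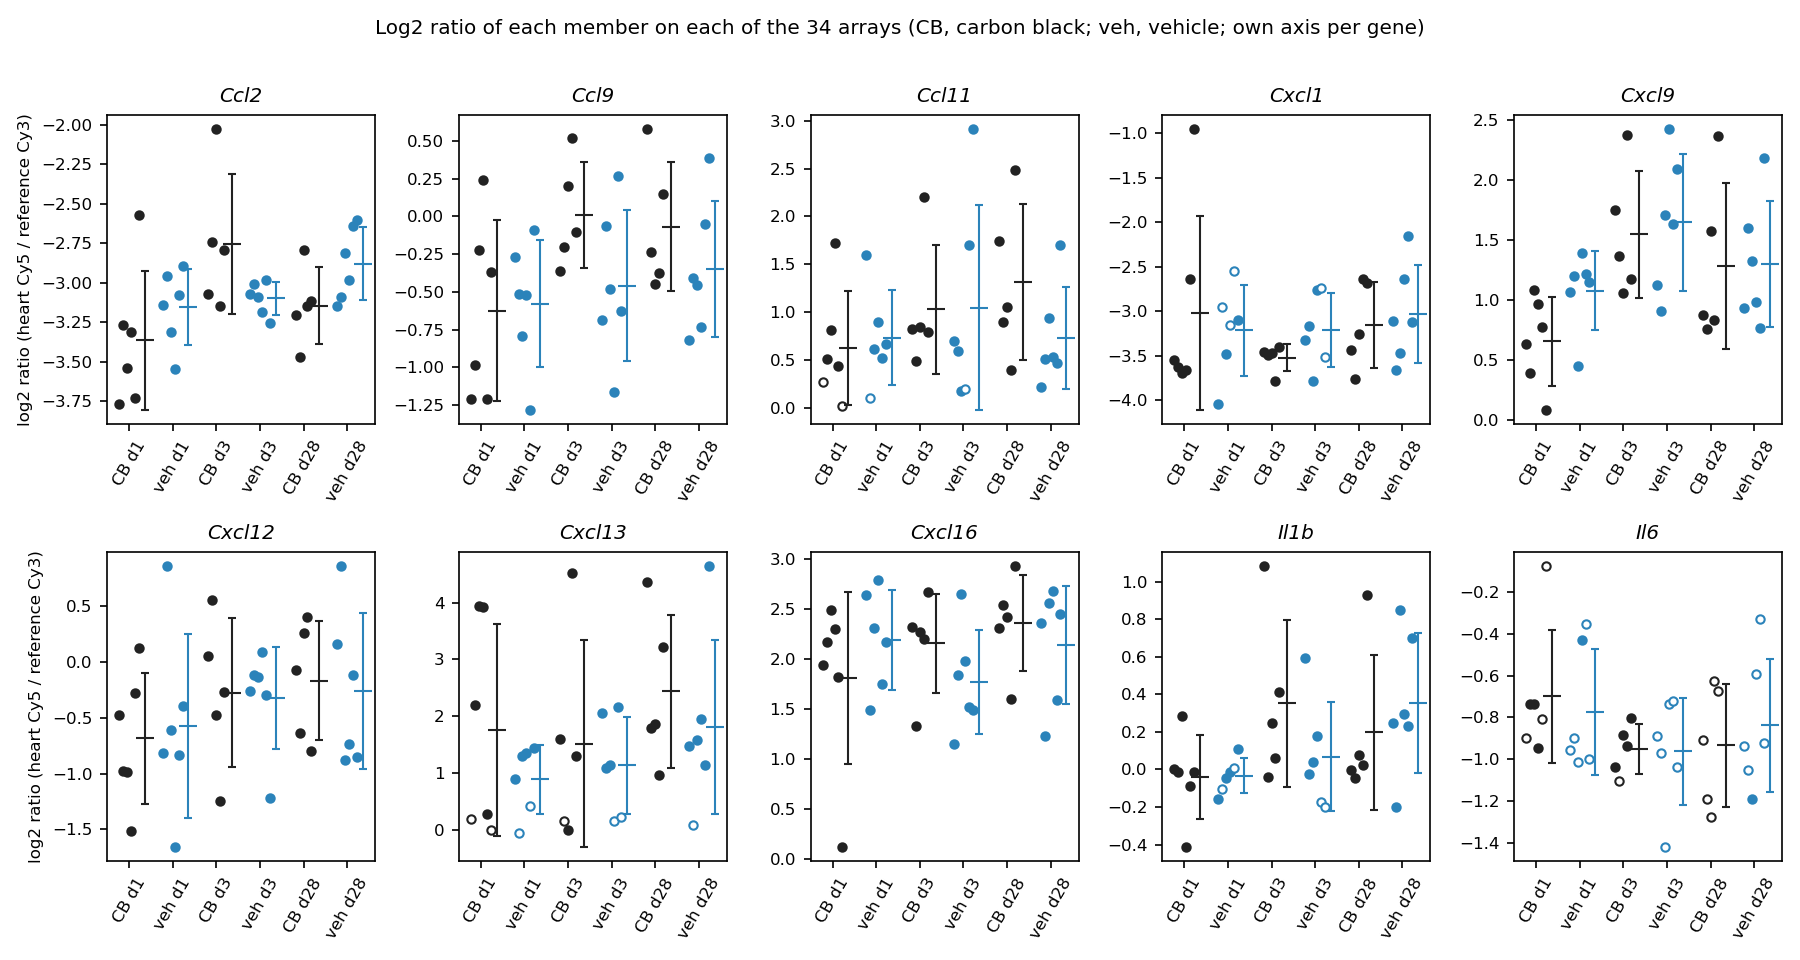
Log2 ratio of heart over reference (y axis, a separate scale for each gene) for the 10 genes on each of the 34 arrays, with carbon black (black, CB) left of vehicle (blue, veh) at days 1, 3 and 28. Points are single hearts, open where the heart signal was not well above background, and bars are the group mean ± SD. Carbon black and vehicle points overlap for each gene at each day.

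None of the 10 genes differed between carbon black and vehicle hearts at an adjusted p below 0.05, either over all days together or at a single day. Over all days, limma with Benjamini-Hochberg adjustment called 385 of the 19798 genes (1.94%), 261 higher and 124 lower, and the lowest adjusted p among the 10 was 0.452. The count over all genes was 0 with slide, scan day or array position as a block, or with Agilent's processed signals, and 1 without vehicle day 3 replicates 4, 5 and 6. At days 1, 3 and 28 the fit called 0% of all genes, and the lowest adjusted p among the 10 genes was 0.794, 0.486 and 1.00. At an unadjusted p below 0.05 none of the 10 passed either, read by the probe that stands for each gene, where 18.3% of all genes did over all days and 7.22%, 11.1% and 2.98% did at days 1, 3 and 28. Without carbon black day 1 replicate 6, Ccl2 had an unadjusted p below 0.05 at days 1 and 3, where 7.99% and 12.3% of all genes did. The groups overlapped for each of the 10 genes at each day, where 0.359%, 0.899% and 0.379% of all genes had groups apart at days 1, 3 and 28. The median difference of the 10 genes (carbon black minus vehicle, log2) was 0.03 over all days, against 0.0010 for all genes tested. It was −0.08, 0.16 and 0.04 at days 1, 3 and 28. The test of whether the exposure effect differed between days called none of the 10 and 0% of all genes, and among the 10 only Ccl2 had an unadjusted p below 0.05, as 1.00% of all genes did (adjusted p = 1.00 in the limma fit).

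**Figure D2:**
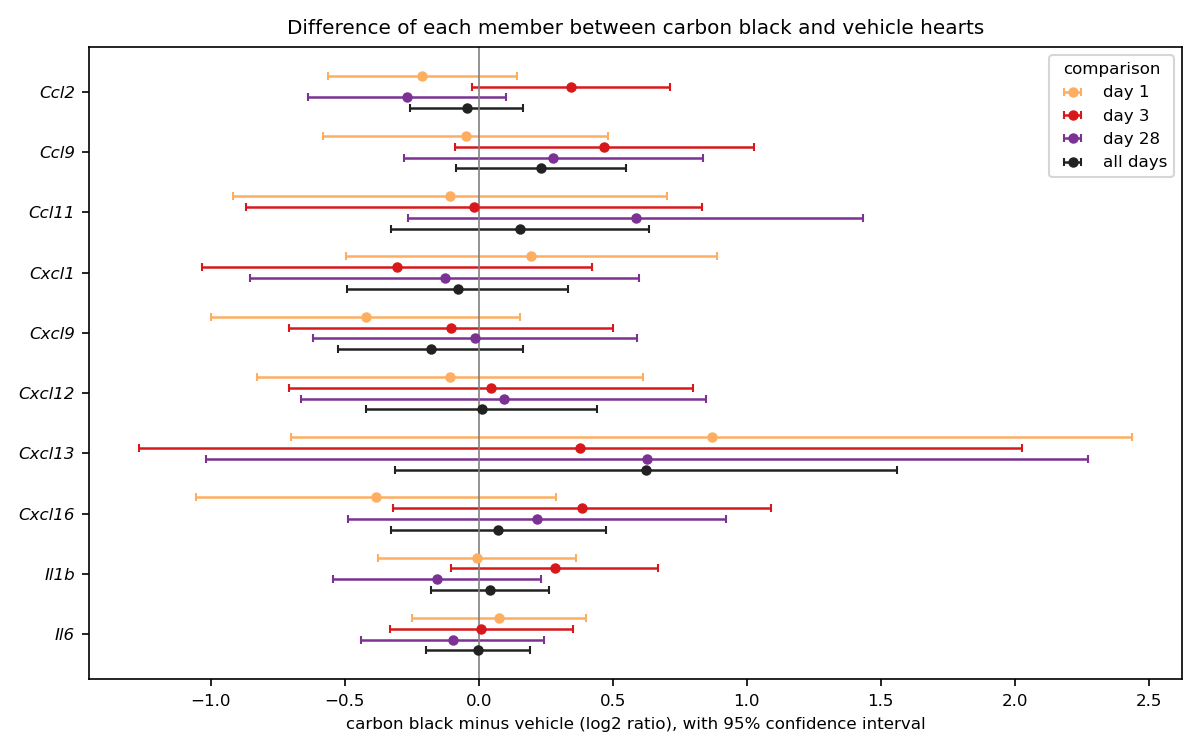
Difference between carbon black and vehicle hearts on the log2 scale (x axis) for each gene, at days 1, 3 and 28 and over all days, with 95% confidence intervals from the limma fit. Every interval includes 0, and the widest are those of Cxcl13, from −0.70 to 2.44 at day 1.

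Ccl2, the ligand of Ccr2 that draws monocytes out of the blood, gave a log2 ratio below that of the reference RNA on all 34 arrays, between −3.77 and −2.02. At day 1 the carbon black hearts had a lowest, median and highest log2 ratio of −3.77, −3.42 and −2.57, against −3.55, −3.11 and −2.89 in vehicle hearts. At day 3 the carbon black hearts had −3.15, −3.07, −2.80, −2.74 and −2.02, against −3.25, −3.08 and −2.98 (lowest, median and highest) in vehicle hearts. Thus 3 of the 5 day 3 carbon black hearts were above every vehicle heart of that day, and the others, at −3.15 and −3.07, lay within the vehicle range. At day 28 the carbon black hearts had −3.47, −3.21, −3.15, −3.11 and −2.79, against −3.15, −2.90 and −2.60 in vehicle hearts. The difference was −0.21 ± 0.17 (SE) at day 1, 0.34 ± 0.18 at day 3 and −0.27 ± 0.18 at day 28, with adjusted p = 0.858, 0.486 and 1.00 in the limma fit. Single hearts moved these values: the day 1 difference was −0.37 without carbon black replicate 6, the highest of its group, and −0.13 without replicate 1, and the day 3 difference was 0.16 without carbon black replicate 3. Ccl2 has 10 spots on each array, and the SD between spots of an array (median 0.143) was below the SD between hearts of a group (0.305).

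Ccl9, a Ccr1 ligand made by macrophages and other myeloid cells, was near the reference level. The day 1 values were −1.21, −0.68 and 0.24 (lowest, median and highest) in carbon black hearts, against −1.28, −0.52 and −0.09 in vehicle hearts. At day 3 the carbon black hearts had −0.36, −0.20, −0.10, 0.20 and 0.52, against −1.16, −0.55 and 0.27 in vehicle hearts. All 5 carbon black hearts of day 3 were above the vehicle mean of −0.46, but 2 vehicle hearts lay among them. At day 28 the values were −0.45, −0.37, −0.24, 0.15 and 0.58 in carbon black hearts, against −0.82, −0.43 and 0.39 in vehicle hearts. Of the 10 genes Ccl9 had the smallest p over all days, with a difference of 0.23 ± 0.16 (SE; limma, adjusted p = 0.452). Above the vehicle mean of the 3 days together (−0.46) were 13 of 16 carbon black hearts. Against the vehicle mean of their own day, 3 of 6, 5 of 5 and 3 of 5 were above it at days 1, 3 and 28. The mean score of 11 tested of 12 resident macrophage markers ranged from −1.98 to 0.42, −0.17 to 0.32 and −0.19 to 0.33 in carbon black hearts at days 1, 3 and 28. In vehicle hearts it ranged from −0.51 to 0.28, −0.51 to 0.31 and −0.29 to 0.43, and the part of these cells in the Ccl9 values was not tested.

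Ccl11, the eosinophil chemokine eotaxin, varied among hearts of a group more than 96.0% of the genes tested (SD within groups 0.72). In carbon black hearts it averaged 0.63 ± 0.59, 1.03 ± 0.67 and 1.31 ± 0.81 (SD, n = 6, 5 and 5) at days 1, 3 and 28. In vehicle hearts it averaged 0.73 ± 0.50, 1.05 ± 1.07 and 0.73 ± 0.53 (SD, n = 6 each). The day 28 carbon black hearts had 0.40, 0.90, 1.05, 1.74 and 2.49, against 0.22, 0.52 and 1.70 (lowest, median and highest) in vehicle hearts. The largest difference, at day 28, was 0.59 ± 0.42 (SE; limma, adjusted p = 1.00), and 0.29 without carbon black replicate 5. At day 3 it was −0.02 ± 0.42, and 0.54 (adjusted p = 0.935) without vehicle replicates 4, 5 and 6, which leaves in carbon black replicate 3, whose liver score was above that of vehicle replicate 4. At day 1 it was −0.11, and 0.015 without carbon black replicate 6. The heart signal of Ccl11 was between 1.09 and 4.48 times its local background (median 1.51), so that its ratio rests on a dim signal.

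Cxcl1, a neutrophil chemokine that acts through Cxcr2, was below the reference on all arrays, between −4.04 and −0.95. In carbon black hearts it averaged −3.02 ± 1.09, −3.52 ± 0.15 and −3.15 ± 0.49 (SD, n = 6, 5 and 5) at days 1, 3 and 28. In vehicle hearts it averaged −3.21 ± 0.51, −3.21 ± 0.42 and −3.03 ± 0.55 (SD, n = 6 each). At day 1 the values were −3.69, −3.59 and −0.95 (lowest, median and highest) in carbon black hearts, against −4.04, −3.13 and −2.55 in vehicle hearts. The −0.95 is that of replicate 6, and without it the difference was −0.22 at day 1, against 0.20 with it, and −0.22 over all days, against −0.08. The heart signal of Cxcl1 was between 1.04 and 2.44 times its local background, so that its ratio rests on a dim signal. Of 8 neutrophil markers 3 passed the filter: S100a9 was well above background on all 34 arrays, S100a8 on 20 and Camp, a granule protein, on 9.

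Cxcl9, an interferon-gamma induced ligand of Cxcr3 on activated T cells, was above the reference on all arrays, between 0.08 and 2.43. Day 1 carbon black hearts had 0.08, 0.71 and 1.08 (lowest, median and highest), against 0.45, 1.17 and 1.39 in vehicle hearts. At day 3 they had 1.06, 1.18, 1.37, 1.75 and 2.38, against 0.91, 1.67 and 2.43 in vehicle hearts. In both arms the day 3 mean was the highest of the 3 days, and in both the day 1 mean was the lowest. At day 28 the carbon black hearts had 0.76, 0.83, 0.88, 1.58 and 2.37, against 0.77, 1.15 and 2.19 in vehicle hearts. The largest difference between the arms was −0.42 ± 0.28 (SE) at day 1 (limma, adjusted p = 0.794), and −0.31 without replicate 6. The heart signal of Cxcl9 was between 1.24 and 4.50 times its local background (median 1.88).

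Cxcl12, the stromal ligand of Cxcr4 that retains progenitor and immune cells in tissue, was read by 2 probes of different RefSeq transcripts. The brighter probe, which stands for the gene, averaged −0.68 ± 0.59, −0.28 ± 0.67 and −0.17 ± 0.53 (SD, n = 6, 5 and 5) in carbon black hearts at days 1, 3 and 28. In vehicle hearts it averaged −0.58 ± 0.82, −0.32 ± 0.46 and −0.26 ± 0.69 (SD, n = 6 each). The dimmer probe averaged −2.46 ± 0.69, −2.53 ± 0.31 and −2.39 ± 0.22 in carbon black hearts, against −2.25 ± 0.22, −2.41 ± 0.40 and −2.24 ± 0.25 in vehicle hearts. The probes did not rank the hearts alike, with a Pearson r of 0.218 over the 34 arrays. Both read the same RNA on the same arrays, so this r describes these libraries only. The difference between the arms over all days was 0.01 ± 0.21 (SE) with the brighter probe and −0.16 ± 0.13 with the other, with adjusted p = 0.988 and 0.568 in a limma fit of all probes. At day 1 the brighter probe gave −0.11, and −0.27 without carbon black replicate 6. On the 5 arrays low in atrial transcripts, the brighter probe read 0.09 to 0.86, against −1.66 to 0.41 on the other 29, and the part of section content in this gene was not tested.

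**Figure D3:**
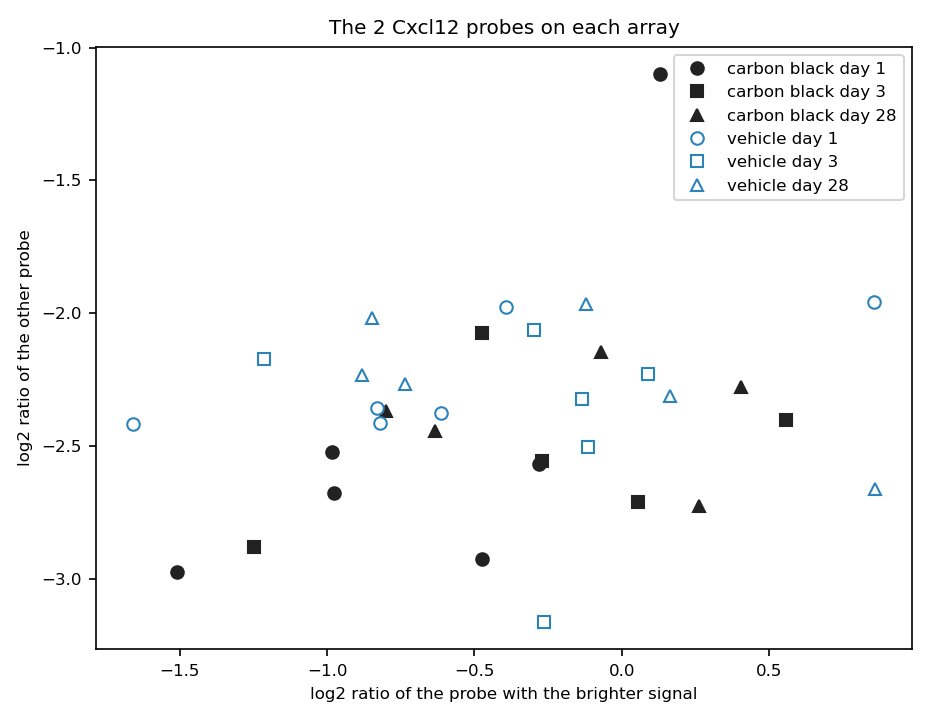
Log2 ratios of the Cxcl12 probes on the 34 arrays: the brighter probe on the x axis and the dimmer probe on the y axis, one point per heart, filled black for carbon black and open blue for vehicle (circles day 1, squares day 3, triangles day 28). The points form no line (r = 0.218), and the highest y value, −1.10, is carbon black day 1 replicate 6.

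Cxcl16, a membrane-bound ligand of Cxcr6 that also takes up oxidised lipoprotein, was above the reference on all arrays. It averaged 1.81 ± 0.86, 2.16 ± 0.50 and 2.36 ± 0.48 (SD, n = 6, 5 and 5) in carbon black hearts at days 1, 3 and 28. In vehicle hearts it averaged 2.19 ± 0.50, 1.77 ± 0.52 and 2.14 ± 0.59 (SD, n = 6 each). The largest difference was 0.39 ± 0.35 (SE) at day 3 (limma, adjusted p = 0.692), and 0.59 without carbon black replicate 2. Over all days it was 0.07, and 0.19 without carbon black day 1 replicate 6. At day 1 it was −0.38 ± 0.33, and −0.04 without replicate 6, whose 0.12 lay below the 1.82 to 2.49 of the other carbon black hearts. A dimmer probe of the same transcript followed the first over the arrays (r = 0.734) and gave −0.65 ± 0.24 at day 1. In the limma fit of all probes its unadjusted p was 0.0123, where 7.07% of probes had one below 0.05, and its adjusted p was 0.611. Without replicate 6 it gave −0.46 ± 0.23 (adjusted p = 0.642). The dimmer probe gave 0.13 ± 0.25 at day 3, −0.09 ± 0.25 at day 28 and −0.20 ± 0.14 over all days. The brighter probe gave 0.22 at day 28 and 0.07 over all days, so the probes differed in sign there.

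Cxcl13, the B cell chemokine that acts through Cxcr5 and is made by follicular stroma, had the widest spread of the 10 genes. Its log2 ratio ran from −0.07 to 4.65, and its SD within groups (1.40) was larger than that of 99.6% of the genes tested. Day 1 carbon black hearts had 0.00, 1.23 and 3.95 (lowest, median and highest), against −0.07, 1.09 and 1.44 in vehicle hearts. At day 3 they had −0.01, 0.16, 1.30, 1.61 and 4.52, against 0.15, 1.11 and 2.16 in vehicle hearts. At day 28 they had 0.96, 1.80, 1.86, 3.22 and 4.36, against 0.07, 1.53 and 4.65 in vehicle hearts. A few hearts carried the high values: 6 of 34 were above 3, of which 5 were carbon black and 1 was vehicle, and the other 28 were at 2.19 or below. The gene was well above background on 13 of 16 carbon black and 13 of 18 vehicle arrays. The difference over all days was 0.63 ± 0.46 (SE), with a 95% interval of −0.31 to 1.56 (limma, adjusted p = 0.508). It was 0.87 ± 0.77 at day 1, 0.38 ± 0.81 at day 3 and 0.63 ± 0.81 at day 28. Single hearts moved it both ways. Over all days it was 0.74 without carbon black day 1 replicate 6 and 0.37 without carbon black day 3 replicate 4. At day 1 it was 1.22 without replicate 6 and 0.43 without replicate 3 or replicate 4, and at day 3 it was −0.37 without carbon black replicate 4. At day 28 it was 0.15 without carbon black replicate 1 and 1.2 without vehicle replicate 6.

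Lymphocyte transcripts were high in most of the same hearts. The score of 8 tested of 10 T and B lymphocyte markers was 0.97, 1.18, 1.49 and 1.68 in the carbon black hearts with Cxcl13 at 3.93, 3.95, 4.36 and 4.52. The carbon black heart with Cxcl13 at 3.22 had a score of 0.12, and the vehicle heart at 4.65 had the highest score of all, 2.90. In the other 28 hearts the score was between −0.36 and 0.75. By group the score ranged from −0.22 to 1.18, −0.32 to 1.68 and −0.36 to 1.49 in carbon black hearts at days 1, 3 and 28, against −0.21 to 0.21, −0.24 to 0.75 and −0.36 to 2.90 in vehicle hearts. The part of lymphocytes in the Cxcl13 values was not tested. On the 5 arrays low in atrial transcripts, Cxcl13 was at −0.07 to 0.16, near its floor.

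**Figure D4:**
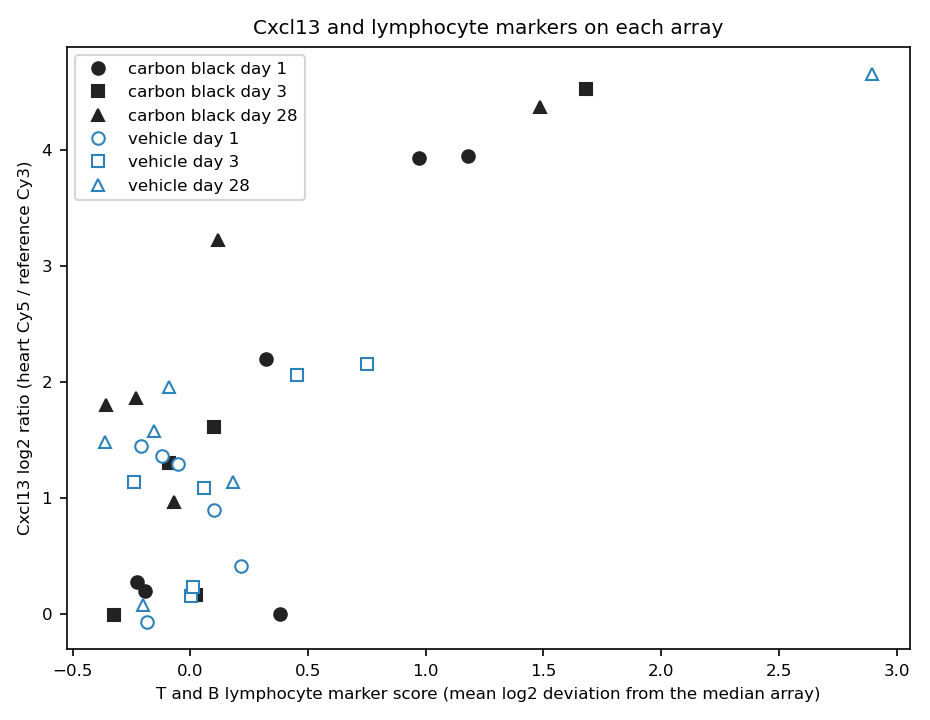
Cxcl13 log2 ratio (y axis) against the T and B lymphocyte marker score (x axis, mean log2 deviation of 8 markers from the median array) in each of the 34 hearts, carbon black filled black and vehicle open blue. The 6 hearts with Cxcl13 above 3 have scores of 0.12 to 2.90, and 5 of them are carbon black.

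Il1b, the secreted form of interleukin-1 that Casp1 cuts from its precursor, gave a log2 ratio near the reference level in all groups. Day 1 carbon black hearts had −0.41, −0.01 and 0.28 (lowest, median and highest), against −0.16, −0.03 and 0.11 in vehicle hearts. At day 3 they had −0.04, 0.06, 0.25, 0.41 and 1.08, against −0.20, 0.01 and 0.59 in vehicle hearts. At day 28 they had −0.04, 0.00, 0.02, 0.08 and 0.93, against −0.20, 0.27 and 0.85 in vehicle hearts. Single hearts thus set the upper end at days 3 and 28. The largest difference was 0.28 ± 0.19 (SE) at day 3 (limma, adjusted p = 0.590), and 0.10 without carbon black replicate 1, and it was −0.16 ± 0.19 at day 28. Over all days it was 0.04 ± 0.11. The 10 spots of an array agreed to an SD of 0.136 (median), against 0.321 between hearts of a group.

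Il6, the ligand of Il6ra and the shared receptor chain Il6st, averaged −0.70 ± 0.32, −0.95 ± 0.12 and −0.93 ± 0.29 (SD, n = 6, 5 and 5) in carbon black hearts at days 1, 3 and 28. In vehicle hearts it averaged −0.78 ± 0.30, −0.96 ± 0.26 and −0.84 ± 0.32 (SD, n = 6 each). No vehicle array of day 3 was well above background, and the gene passed the filter only through carbon black groups, so no fold is given there. The ratios of Il6 therefore say little about its level in heart. The highest of all, −0.08, was again carbon black day 1 replicate 6, against −0.95 to −0.74 in the other 5 hearts of its group, and without it the day 1 difference was −0.05, against 0.08 with it.

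Between days, none of the 10 genes passed in either arm, and the fit called 0% of all genes in each of the 6 day comparisons. In carbon black hearts, day 3 against day 1 gave 4 of the 10 genes an unadjusted p below 0.05, as did 5.42% of all genes: Ccl2, Ccl9, Cxcl9 and Il1b, all with a higher mean at day 3. The difference was 0.61 ± 0.18 (SE) for Ccl2, 0.64 ± 0.27 for Ccl9, 0.89 ± 0.30 for Cxcl9 and 0.39 ± 0.19 for Il1b, and their adjusted p in the limma fit was 0.517, 0.882, 0.664 and 0.916. All 5 day 3 carbon black hearts were above the day 1 mean for Ccl2, Ccl9 and Cxcl9, and 4 of 5 were for Il1b. The groups overlapped for all 4 genes, where 0.798% of all genes had groups apart. With Agilent's processed signals in place of the normalisation used here, Ccl2 alone of the 10 passed, at 0.88 ± 0.18 (adjusted p = 0.0315), where 19 of 19798 genes did. The same comparison in vehicle hearts gave 0.06 ± 0.17 for Ccl2, 0.12 ± 0.26 for Ccl9, 0.57 ± 0.28 for Cxcl9 and 0.10 ± 0.18 for Il1b. None of the 10 genes had an unadjusted p below 0.05 there, where 2.04% of all genes did, and none had groups apart, where 0.0354% of all genes did. The median of the 10 genes was 0.40 in carbon black and 0.11 in vehicle hearts, against 0.02 and −0.0068 for all genes tested. Without carbon black day 1 replicate 6 the difference was 0.77 ± 0.16 for Ccl2, 0.69 ± 0.29 for Ccl9, 0.78 ± 0.31 for Cxcl9 and 0.40 ± 0.20 for Il1b (adjusted p = 0.134 for Ccl2 and 1.00 for the others), and 1 of all genes passed. Some marker scores had a higher mean in the day 3 carbon black hearts than in those of day 1. Among them were macrophage (0.13 against −0.55), fibroblast (0.13 against −0.63), endothelial (0.10 against −0.38), adipocyte (0.23 against −1.05) and liver (1.23 against 0.01). Without replicate 6 these day 1 means were −0.26, −0.35, −0.03, −0.30 and 0.18. Other scores had a lower mean at day 3: neutrophil (0.05 against 0.27), T and B lymphocyte (0.28 against 0.41) and ventricular (0.02 against 0.08). Without replicate 6 the day 1 means of those were 0.45, 0.41 and 0.21. The part of these cells in the values was not tested.

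From day 1 to day 28, Ccl9 and Cxcl9 had an unadjusted p below 0.05 in carbon black hearts (0.56 ± 0.27 and 0.63 ± 0.30), as did 4.27% of all genes, and both had an adjusted p of 0.996. Without carbon black day 1 replicate 6 the differences were 0.61 for Ccl9, 0.51 for Cxcl9 and 0.38 for Ccl2, and Ccl9 and Ccl2 were the genes of the 10 below 0.05, where 4.04% of all genes were. In vehicle hearts the same comparison gave an unadjusted p below 0.05 for Il1b only, at 0.39 ± 0.18 (adjusted p = 1.00), as for 1.18% of all genes. Between day 28 and day 3, Ccl2 in carbon black hearts was the one gene with an unadjusted p below 0.05, at −0.39 ± 0.19 (adjusted p = 1.00), where 1.36% of all genes had one. In vehicle hearts none of the 10 did between those days, where 4.45% of all genes did, and none had groups apart, where 0.0556% of all genes did.

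Of 99 further genes of these pathways, chosen by function, 97 were on the array and 72 passed the filter. Over all days 1 of the 72 passed the test, lower in carbon black hearts, and none was higher, which with 1.94% called among all genes is near the background. The gene was Cx3cl1, fractalkine, a membrane-bound chemokine of endothelium and the ligand of Cx3cr1. At day 1 the carbon black hearts had −2.26, −2.08 and −1.89 (lowest, median and highest), against −2.31, −1.85 and −1.51 in vehicle hearts. At day 3 they had −2.43, −2.15, −2.00, −1.83 and −1.79, against −1.99, −1.71 and −1.31 in vehicle hearts. At day 28 they had −1.98, −1.92, −1.88, −1.80 and −1.68, against −1.86, −1.54 and −1.37 in vehicle hearts. The groups overlapped at each day, and 1 of 16 carbon black hearts was above the vehicle mean of all days together. Cx3cl1 fell by 0.30 ± 0.076 (SE) on the log2 scale over all days (limma, adjusted p = 0.0450), although with median centring in place of loess, which moves the median of all genes to 0.188, it read 0.07. The call was lost with array position, slide or scan day as a block, where the difference was −0.20, −0.36 and −0.27 (adjusted p = 0.697, 0.125 and 0.101). It was lost as well with Agilent's processed signals (−0.21, adjusted p = 0.347), with no filter on dim probes (0.0581), with the mean over probes (0.0514), without the 5 arrays low in atrial transcripts (0.0607), without vehicle day 3 replicates 4, 5 and 6 (0.117), and without any of 21 of the 34 arrays in turn (adjusted p up to 0.0765). The call held with no background correction, with the authors' table, and with slide as a random block. It also held among genes well above background on all 34 arrays. The lowest adjusted p under these settings was 0.0166 (limma).

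**Figure D5:**
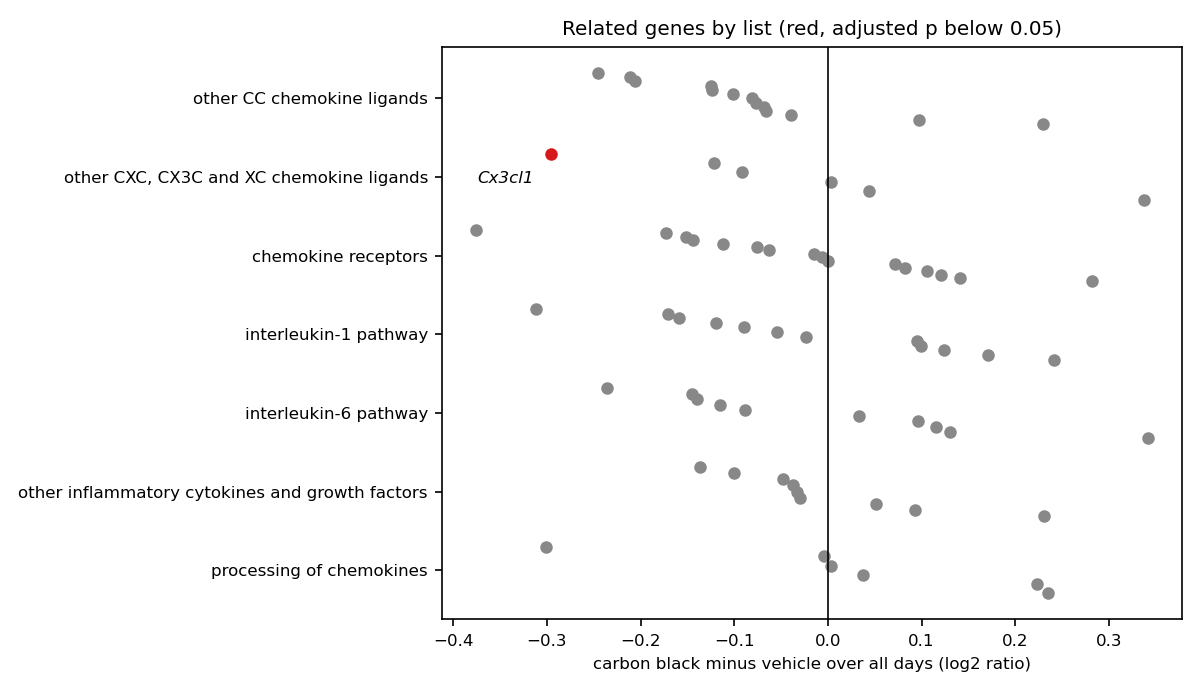
Carbon black minus vehicle over all days (x axis, log2) for 72 related genes, one point per gene in rows by functional list. The red point is Cx3cl1 at −0.30 (adjusted p = 0.0450) and grey points did not pass.

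The other lists held no gene past the threshold with the processing used here. Among 13 tested of 17 other CC ligands the median difference over all days was −0.08, with Ccl21a, a lymphatic ligand of Ccr7, at −0.25 ± 0.17 (SE). Among 16 tested of 23 receptors the median was −0.01, with Xcr1 at 0.12 ± 0.053 and Cx3cr1, the fractalkine receptor, at −0.15 ± 0.095. Xcr1 was well above background on 10 and Cx3cr1 on 24 of the 34 arrays. At day 1 the groups of Cx3cr1 did not overlap, as for 0.359% of all genes, at −0.49 ± 0.16 (limma, adjusted p = 0.527). Cx3cr1 is also among the resident macrophage markers, whose mean score at day 1 was −0.55 in carbon black and −0.09 in vehicle hearts. Without carbon black replicate 6 the former was −0.26, and the part of these cells was not tested. The receptors Cxcr2 of neutrophils and Ccr1, a receptor of Ccl9, did not pass the filter, being well above background on 2 and 0 arrays. Among 12 tested of 16 interleukin-1 pathway genes the median was −0.04, with the inflammasome adaptor Pycard at 0.24 ± 0.097 (limma, adjusted p = 0.168), while Il1a and the receptor antagonist Il1rn were well above background on no array. Among 10 tested of 11 interleukin-6 pathway genes the median was −0.03, and Stat3, the transcription factor that carries the signal of Il6 to the nucleus, stood at 0.34 ± 0.12 over all days (adjusted p = 0.102). Stat3 was at 0.79 ± 0.21 at day 3 (adjusted p = 0.348), and all 5 carbon black hearts of that day were above every vehicle heart, as 0.899% of all genes had groups apart at day 3. Under the other settings its all-days value ran from 0.06 with array position as a block (adjusted p = 0.966) to 0.72 with median centring (adjusted p = 0.0369). It passed there, with no background correction (0.37, adjusted p = 0.0450) and without carbon black day 1 replicate 6 (0.39, adjusted p = 0.0424), where 6.78%, 7.51% and 4.13% of all genes did, and with other single arrays left out its adjusted p reached 0.175. Among 9 tested of 14 other cytokines and growth factors the median was −0.03, with Mif, a macrophage cytokine, at 0.23 ± 0.12 and Tnf at −0.10 ± 0.081. Tnf was well above background on 10 arrays only. Among 6 proteases that cut or shed chemokines the median was 0.02, with Mmp2, a gelatinase, at −0.30 ± 0.094 (adjusted p = 0.0763). Under other settings only the genes chosen from each list were read, namely those past the threshold or of smallest p. The shares of all genes given for Stat3 above and for the genes below are thus not a like measure. Some of these chosen genes passed over all days under other settings (limma, adjusted p). With the authors' table Mmp2 (−0.35, 0.0212), Il1rl1 (−0.43, 0.0429) and Ccl25 (−0.21, 0.0329) passed, where 7.56% of all genes did. With no background correction Mmp2 passed (−0.31, 0.0426), where 7.51% did. With median centring Pycard passed (0.56, 0.0487), where 6.78% did.

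For the 5 genes well above background on all arrays, the genes whose log2 ratios ran most alike over the 34 hearts were sought among named genes. Nearest to Ccl2 was Ccl7, its neighbour in function as a Ccr2 ligand, with a Pearson r of 0.668, then Isg15 and Ifit1, both interferon-induced, with 0.614 and 0.608. Nearest to Ccl9 were Fcer1g (0.831), Ifi204 (0.819) and Fcgr2b (0.816), the first and the last being Fc receptor chains of myeloid cells. Nearest to Cxcl9 were Kit, Gvin1 and Yipf6 (0.802, 0.798 and 0.781), and nearest to Cxcl12 were Tnfaip2, Epb41l4a and Ung (0.868, 0.835 and 0.820). Nearest to Cxcl16 were Mansc1 (0.933), Eng, an endothelial co-receptor (0.898), and Mageh1 (0.896). Nearest to Cxcl13, a gene added to this search afterwards, were Cd52, a lymphocyte surface protein (0.882), Fcmr, the receptor for IgM (0.878), and Enpp2 (0.876). All hearts share the reference RNA, and cell content and signal strength move many genes at once, so these values describe likeness only. Without carbon black day 1 replicate 6 they were between 0.581 and 0.904.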

How the data were processed

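Heart RNA (200 ng) was labelled with Cy5 and a universal mouse reference RNA with Cy3 on all 34 arrays, per the labels' protocols. The deposited scanner files hold median intensity values for each spot of both channels from Feature Extraction 10.1.1.1, per the file headers. The authors' deposited series table holds log2 values, and its columns correlated at 0.996 to 0.999 with loess log2 ratios computed without background correction. It served as an alternative.

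The local background was removed by normexp with an offset of 50, and each array was normalised by loess, using limma 3.58.1 and data.table (version 1.17.8) under R 4.3.3. Spots of a probe were averaged, and the probe with the brightest mean heart signal stood for its gene. A gene was kept if, in 1 group or more, a share of 0.5 or more of the arrays showed it well above background. One mean per group was fitted for 19798 genes, with 28 residual degrees of freedom and Benjamini-Hochberg adjustment at 0.05. All-days differences weight the 3 days equally. P-values rest on the spread between hearts of a group. Each heart was on 1 array, so slide, scan day and section content are part of that spread. Array position is part of it only to a degree, since all 10 arrays at position 4 were carbon black. An effect of position can thus also shift the difference between the arms, and the p-values do not cover such a shift. The fit was also run on simulated data in which residuals were shuffled over the arrays. That run could not test the tie of exposure with array position, which the shuffling breaks. The number of arrays limits the precision.

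The 10 genes, the pathway lists and the markers were chosen with earlier results of these data known. The text names all 10 genes and, from each list, the genes past the threshold or, where none passed, up to 3 of smallest p over all days. Untested genes (Cxcr2, Ccr1, Il1a, Il1rn) and days singled out for Stat3 and Cx3cr1 were chosen after their values were seen. Likeness was sought for genes well above background on every array. Alternatives covered normalisation, background correction, the filter, the probe rule, slide, scan day and array position as blocks, and arrays left out. Figures and motif counts used Python 3.11.15, pandas 2.3.3 and matplotlib 3.10.9. Some genes of the lists are not reported here.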

Additional observations from a re-analysis of the deposited data

Results flagged for a closer look

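In 7 of the 60 groups of values (10 genes in 6 groups), 1 heart lay apart from the rest of its group by Dixon's criterion, which chance meets in about 1 of 20 groups. For Ccl11, carbon black day 3 replicate 4 had a log2 ratio of 2.21, against 0.49 to 0.84 in the other 4 hearts. The same heart had the lowest Cxcl1 of its group, at −3.78 against −3.49 to −3.40, and the highest Cxcl13 of its group. For Cxcl9, vehicle day 1 replicate 3 was at 0.45, against 1.06 to 1.39 in the other 5 hearts. For Cxcl12, vehicle day 3 replicate 6 was at −1.21, against −0.30 to 0.09. For Il1b, carbon black day 28 replicate 5 was at 0.93, against −0.04 to 0.08 in the other 4 hearts. Carbon black day 1 replicate 6, the array that stood apart over all genes, was set apart for Cxcl16, at 0.12 against 1.82 to 2.49, and for Il6, at −0.075 against −0.95 to −0.74.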

How the results depend on the processing

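No paired analysis was possible because the labels give no replicate number shared between groups; arrays of one slide were compared through the slide block. None of the 10 genes passed the threshold between carbon black and vehicle hearts under any alternative run, and the lowest adjusted p (limma, Benjamini-Hochberg) was 0.0949 over all days and 0.432, 0.238 and 0.792 at days 1, 3 and 28. The one count of called genes among the 10 that moved was that of carbon black hearts at day 3 against day 1, which was 1 with Agilent's processed signals, where 19 of 19798 genes were called, and 0 otherwise. The count over all genes (385 over all days) was 1343 with median centring, 1486 with no background correction, 1497 with the authors' table, 153 with no filter on dim probes, 140 with the mean over probes, 1019 without the 5 arrays low in atrial transcripts, and 0 to 945 with single arrays left out. Signs turned for 68 of 530 differences of the 10 genes under other settings and for 74 of 1360 with 1 array left out, none of them past the threshold, and the cause was not tested. Median centring moved the median of all genes to 0.188 over all days, 0.209 at day 1, 0.285 at day 3 and 0.0792 at day 28, and the turned differences (carbon black minus vehicle, log2) were Ccl2 0.31, Cxcl1 0.19, Il6 0.046, Ccl21a 0.026, Ccl25 0.20, Cx3cl1 0.069, Irak1 0.21, Il1rl1 0.051 and Mmp2 0.033 over all days, Ccl2 0.20, Ccl9 0.27 and Cxcl12 0.39 at day 1, and Cxcl1 0.10 and Cxcl9 0.03 at day 3. Scan day as a block gave Ccl2 0.0023, Cxcl1 0.11, Cxcl16 −0.047 and Il6 0.10 over all days, and Cxcl1 0.042 at day 28. With Agilent's processed signals they were Ccl9 −0.053, Cxcl12 −0.14, Il6 0.053, Ccl21a 0.13, Mif −0.10 and Mmp14 −0.080 over all days, Ccl11 0.70, Cxcl13 −0.31, Il1b 0.00064 and Il6 −0.10 at day 1, Cxcl12 −0.21 and Cxcl13 −0.79 at day 3, and Cxcl1 0.071 at day 28. With array position as a block they were Cxcl1 0.16, Il6 0.11, Ccl25 0.091, Ccl8 0.0052 and Mmp14 −0.092 over all days, Il1b 0.13 at day 1, and Cxcl1 0.12 and Il6 0.011 at day 28. With the authors' table they were Cxcl12 −0.0075 and Il1b −0.0058 over all days, Ccl11 0.065, Cxcl1 −0.34 and Il6 −0.12 at day 1, and Ccl11 0.10, Cxcl9 0.061, Cxcl12 −0.0076 and Il6 −0.12 at day 3. With the mean over probes they were Cxcl12 −0.074 and Cxcl16 −0.063 over all days, and Cxcl12 −0.035 at day 3 and −0.028 at day 28. With slide as a fixed block they were Cxcl12 −0.043, Cxcl16 −0.035 and Il1b −0.073 over all days, Ccl9 0.044 and Ccl11 0.18 at day 1, Ccl11 0.29 and Il6 −0.011 at day 3, and Cxcl9 0.10 at day 28. As a random block, slide gave Ccl11 0.0032 at day 3. Without vehicle day 3 replicates 4, 5 and 6 they were Cxcl12 −0.040, Il1b −0.0039 and Il6 0.040 over all days, and Ccl11 0.54, Cxcl9 0.30 and Cxcl12 −0.11 at day 3. With no background correction they were Ccl11 0.047, Cxcl1 −0.31 and Il6 −0.10 at day 1, and Ccl11 0.13, Cxcl9 0.075 and Il6 −0.092 at day 3. Without the 5 arrays low in atrial transcripts they were Cxcl1 −0.16, Cxcl12 0.017 and Il6 −0.074 at day 1, Cxcl9 0.10 and Cxcl12 −0.081 at day 3, and Cxcl9 0.045 at day 28. With 1 array left out in turn, the differences that turned lay over all days between −0.061 and 0.11 for Cxcl12, −0.021 and 0.075 for Il1b, and −0.045 and 0.030 for Il6. At day 1 they lay between −0.22 and 0.069 for Ccl9, −0.32 and 0.068 for Ccl11, −0.22 and 0.33 for Cxcl1, −0.32 and 0.18 for Cxcl12, −0.071 and 0.069 for Il1b, and −0.049 and 0.16 for Il6. At day 3 they lay between −0.31 and 0.36 for Ccl11, −0.31 and 0.054 for Cxcl9, −0.16 and 0.29 for Cxcl12, −0.37 and 0.76 for Cxcl13, and −0.082 and 0.058 for Il6. At day 28 they lay between −0.26 and 0.046 for Cxcl1, −0.29 and 0.16 for Cxcl9, −0.050 and 0.32 for Cxcl12, and −0.17 and 0.0056 for Il6. The alternative that starts from mean foreground signals was not run, since the files used here hold median signals. Counts of the pathway genes and of all genes under these settings were added after seeing the data. Signals near background limit Il6, Cxcl1, Il1b, Ccl11, Cxcl9 and part of the Cxcl13 arrays most.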

Other observations

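Among the genes with dimmer probes, likeness over the 34 arrays was looked for after the values were seen. Ccl11 ran most like Prxl2a (Pearson r = 0.923), Kcns3 (0.911) and Aifm2 (0.910). Cxcl1 ran most like Cdc7, a kinase of DNA replication (0.898), and 0.814 without carbon black day 1 replicate 6. Il6 ran most like Cenpi, a centromere protein (0.855), and 0.809 without that heart. Il1b had no gene above its 0.651 with Orai3, and Fos, an immediate early transcription factor, came next at 0.643. The Cxcl1 and Il6 signals were at most 2.44 and 1.63 times the local background, and the part of background in these values was not tested.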
